A study of Mus musculus with 3 samples.

Results

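The proteasome is the barrel-shaped protease that degrades ubiquitin-tagged proteins in the cytosol and nucleus. Its core has outer rings of alpha subunits (Psma genes) and inner rings of beta subunits (Psmb genes), and its 19S cap has ATPases (Psmc genes) that unfold the substrate and non-ATPase subunits (Psmd genes), some of which bind or deubiquitinate it. Of the beta subunits, beta5 (Psmb5), beta1 (Psmb6) and beta2 (Psmb7) cut peptide bonds. In cells that meet interferon, newly made cores take up beta5i (Psmb8), beta1i (Psmb9) and beta2i (Psmb10) in their place, which gives the immunoproteasome. Interferon also induces PA28, an activator built of Psme1 and Psme2. Immune cells, macrophages among them, are known to hold immunoproteasomes without added interferon, and peptides released by proteasomes are a source of those shown on MHC class I.

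The genes described here are the 43 subunit, activator and base chaperone genes of the Psma, Psmb, Psmc, Psmd and Psme series, taken by symbol from the 30406 genes that all libraries list. The 5 interferon-induced genes (Psmb8, Psmb9, Psmb10, Psme1, Psme2) were set against the 38 others. The data are droplet single-cell RNA sequencing of cardiac macrophages of wild type mice, 32 to 34 weeks old. The cells were sorted as CD45, F4/80 and CD11b positive, and 1 library was made for each of 3 diets named CD, HFD and WD. The sources used here give neither the composition of the diets nor the number of mice in a library. Values are UMIs, which count captured transcripts, or UMIs of a group of cells scaled to a common total (CPM). As each transcript is counted at its 3′ end, CPM was not divided by gene length.

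Barcodes with at least 1000 UMIs and 200 genes and at most 10% mitochondrial UMIs were kept as cells, 2679, 2717 and 4775 in CD, HFD and WD. The mitochondrial limit removed 6.33%, 11.9% and 26.1% of the barcodes that passed the other limits. The cells held 74.7% of the UMIs of CD and 52.2% of those of HFD. The libraries held 17464149, 16630481 and 79269380 UMIs. Cells in which C1qa, C1qb and C1qc, complement genes of tissue macrophages, made up at least 0.3% of UMIs are called C1q cells and numbered 2293, 2002 and 3721, with medians of 4319, 2953.5 and 12239 UMIs. They carried 12 macrophage markers, C1qa, C1qb and C1qc among them, at a summed 41637, 47315 and 20884 CPM, with 0 of the 12 absent. As the C1q genes select these cells, their presence and their part of the sum were set by the selection. In WD, 434 cells had a C1q share between 0.2% and 0.4%, near the limit, against 27 in CD and 25 in HFD. The CD and HFD cells shared 15 barcodes, CD and WD shared 1, and HFD and WD shared 0. WD was counted with another software version (7.2.0 against 3.0.1), and only 92 of its 6885 barcodes are in the list that CD and HFD use, so diet and processing cannot be told apart in that library.

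The induced genes lie at 3 places in the mouse genome (GRCm38). Psmb8 at chr17:34197721-34201454 and Psmb9 at chr17:34181987-34187764 are neighbours in the MHC region, Psmb10 lies at chr8:105935735-105938444, and Psme1 (chr14:55578123-55581529) and Psme2 (chr14:55587441-55591113) are neighbours on chromosome 14. Because these genes rose together in both interferon comparisons that follow, their promoters were searched. RefSeq promoter windows (GRCm38.p6, 250 bases before to 50 bases after the start) matched 36 of the 43 genes. For 27 genes the bases after that start were found in a transcript of the gene. The starts used for Psmb8, Psmb9 and Psme1 lie inside the gene spans given above, and that of Psmb5 inside its span, chr14:54614119-54618022. Other transcripts of these genes thus begin further upstream. Shown are the 250 bases before the start of the beta5 and beta1 genes, induced and standard, and 30 bases around a match in Psme1, each 5′ to 3′ along its gene. Capitals mark a gamma activated site (TTCNNNGAA) in Psmb8, the antioxidant response element core (TGACNNNGC) in Psmb5 and Psmb6, and the interferon stimulated response element core (GAAANNGAAA, read on the opposite strand) in Psme1. The Psmb9 window has none of these.
Psmb8, chr17:34197945-34198194, plus strand: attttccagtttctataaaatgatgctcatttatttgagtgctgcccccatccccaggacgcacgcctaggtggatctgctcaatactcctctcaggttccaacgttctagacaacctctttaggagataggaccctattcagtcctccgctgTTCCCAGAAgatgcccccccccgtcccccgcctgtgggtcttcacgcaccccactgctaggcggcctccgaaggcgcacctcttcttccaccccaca
Psmb9, chr17:34187331-34187580, minus strand: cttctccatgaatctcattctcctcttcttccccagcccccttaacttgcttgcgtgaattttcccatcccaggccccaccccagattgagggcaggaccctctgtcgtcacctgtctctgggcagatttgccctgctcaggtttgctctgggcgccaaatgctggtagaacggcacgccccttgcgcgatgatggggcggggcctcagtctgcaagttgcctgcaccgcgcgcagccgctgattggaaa
Psmb5, chr14:54617996-54618245, minus strand: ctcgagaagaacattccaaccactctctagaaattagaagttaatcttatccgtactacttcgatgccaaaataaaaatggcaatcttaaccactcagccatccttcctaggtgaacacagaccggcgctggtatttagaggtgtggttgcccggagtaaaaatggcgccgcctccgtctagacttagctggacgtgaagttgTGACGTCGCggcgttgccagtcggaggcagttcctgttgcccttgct
Psmb6, chr11:70525107-70525356, plus strand: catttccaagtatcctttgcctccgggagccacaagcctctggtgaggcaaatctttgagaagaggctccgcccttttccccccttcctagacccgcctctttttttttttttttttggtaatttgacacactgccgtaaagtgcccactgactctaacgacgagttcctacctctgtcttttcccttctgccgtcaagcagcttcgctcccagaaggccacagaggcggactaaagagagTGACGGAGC
Psme1, chr14:55578493-55578522, plus strand: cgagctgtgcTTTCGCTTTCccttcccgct

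Both strands were searched, and overlapping matches of different motifs were counted separately. The gamma activated site was in 1 of 5 induced genes (Psmb8, at position -97 from the start), in 1 of 31 others (Psmd2) and in 9.55% of 27025 genes with a window. The interferon response core was in 1 of 5 (Psme1, 10 bases after the start), in 3 of 31 (Psmd4, Psmd9, Psmb3) and in 3.99% of all. The antioxidant core was in 0 of 5 induced genes and in 6 of 31 others (Psmd9, Psme4, Psmb6, Psmd12, Psmc6, Psmb5), against 14.0% of all. A CCAAT box was in 1 of 5 (Psmb9), in 13 of 31 and in 41.1% of all. These matches describe the letters of the windows, not bound sites.

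Of the induced genes Psmb8 had the highest level in the heart C1q cells of CD and HFD, and Psme1 in those of WD. Psmb8 reached 360, 405 and 124 CPM in the CD, HFD and WD libraries (where 3 values follow each other, in this order), above its standard counterpart Psmb5 (146, 137 and 55.9 CPM) in every library. Psmb9 gave 112, 138 and 55.8 CPM, below Psmb6 at 238, 217 and 81.5 CPM in every library. Psmb10 (125, 144 and 57.2 CPM) and Psmb7 (117, 103 and 58.9 CPM) were closer to each other. In UMIs the 3 replacement genes therefore did not stand at a common ratio to the genes they replace. As capture differs between genes, the shares that follow are for comparison between cells and are not read as protein makeup. In CD, Psmb8 made up 71.2% of the UMIs of the beta5 pair (95% Clopper-Pearson interval 70.0 to 72.4), Psmb9 32.0% of the beta1 pair (30.5 to 33.4) and Psmb10 51.7% of the beta2 pair (49.8 to 53.5). Of the PA28 genes Psme1 stood at 192, 215 and 148 CPM and Psme2 at 198, 211 and 62.4 CPM. A near copy, Psme2b, had 155, 133 and 1594 UMIs in these cells, so how reads of Psme2 were assigned is uncertain.

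The other subunits spanned a wide range of levels. Psma7 was the highest of the alpha ring in every library (377, 340 and 181 CPM), and Psmb1 was the highest non-catalytic beta gene (310, 267 and 118 CPM). Of the ATPases, Psmc3 led in CD (143 CPM) and HFD (136 CPM) and Psmc6 in WD (67.2 CPM). Psmd8 led the non-ATPase cap genes (157, 122 and 73.0 CPM), and Psmd3 was the lowest of them (46.6, 39.7 and 25.4 CPM). The base chaperones Psmd5, Psmd9 and Psmd10, which help assemble the ATPase ring and leave the finished particle, ran from 12.8 CPM (Psmd5 in WD) to 45.2 CPM (Psmd10 in HFD). The nuclear activator Psme3 had 35.3, 29.6 and 17.4 CPM. Psme4, the PA200 activator, had 15.4 CPM in CD and 13.5 in HFD but 134 in WD. Psma8, the alpha subunit known from testis, had 2.55, 1.52 and 1.45 CPM. The thymus subunit Psmb11 had 0 UMIs in CD and HFD, where 3 UMIs would be 0.263 and 0.455 CPM, and 0.0334 CPM in WD.

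**Figure D1:**
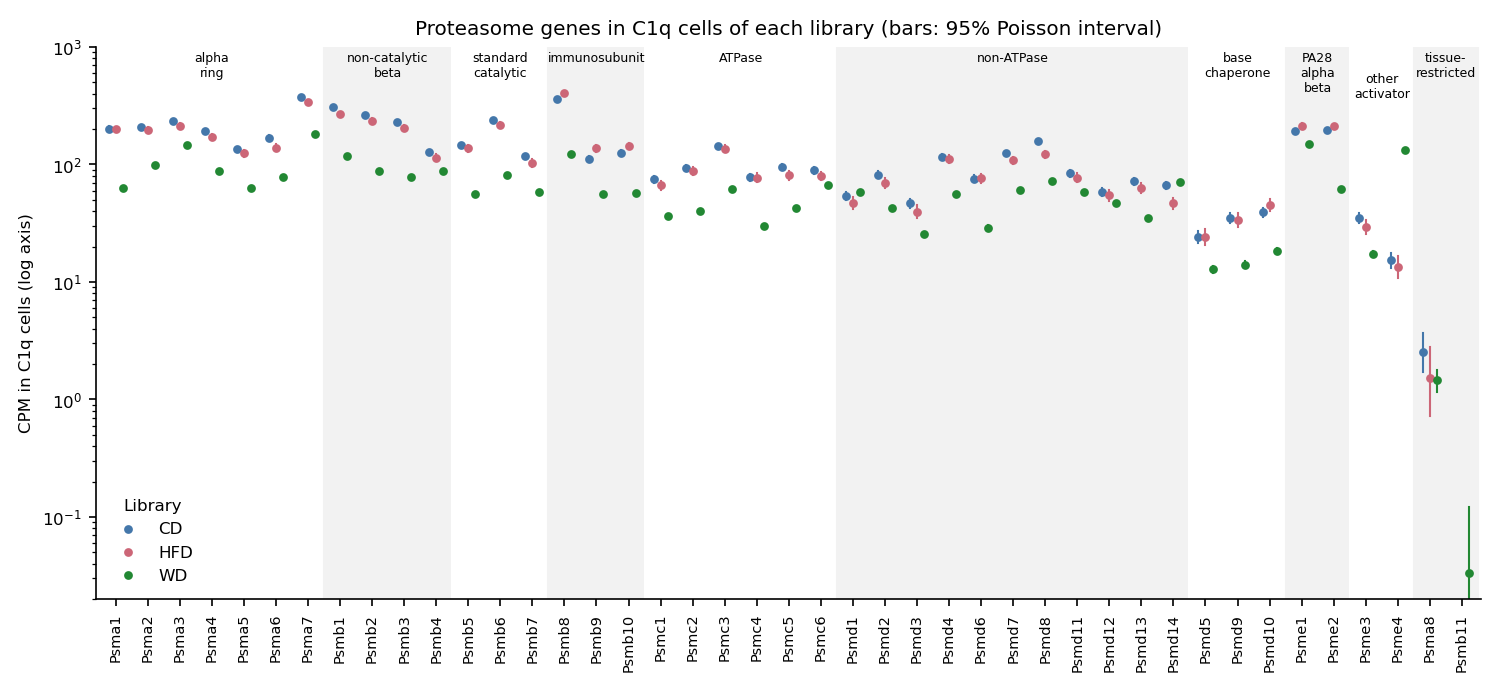
CPM of the 43 proteasome genes (log axis) summed over the C1q cells of each library, by subunit class, with 95% Poisson intervals that cover counting error only. Psmb8 and Psma7 sit at the top in CD and HFD, Psme4 is higher in WD (134 CPM) than in CD or HFD, and a gene with 0 UMIs has no point.

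Free RNA was read from barcodes with at most 100 UMIs in CD and HFD. The catalytic and PA28 genes were lower there than in C1q cells, with Psmb8 at 158 CPM in CD and 186 CPM in HFD. The share of Psmb8, Psmb9 and Psmb10 among the UMIs of the 6 catalytic genes, called the immunosubunit share here, was 52.7% (50.3 to 55.0) in this pool in CD and 56.9% (54.9 to 58.8) in HFD. In C1q cells it was 54.4% (53.5 to 55.3) in CD, 60.0% (58.9 to 61.1) in HFD and 54.7% (54.1 to 55.3) in WD. HFD was thus above CD in the cells and, with overlapping intervals, in the pool. Intervals of shares, ratios and CPM cover counting error only.

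Within the C1q cells, genes were then compared between cells with and without a feature. The UMIs of each side were summed per library and all genes were tested over the 3 libraries with edgeR's quasi-likelihood test, with the library as a block and p-values adjusted over all genes (Benjamini-Hochberg, called at 0.05). The libraries are of different diets and nothing says how many mice they hold, so these p-values measure the spread of a split over 3 libraries, which may be technical. A log2 difference is that of the normalized level on the high side less that on the low side.

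The widest separation within the family lay along 13 interferon-induced GTPase and chemokine genes, among them Gbp2, Igtp and Irgm1, of which the GTPases are known for defence against microbes in vacuoles. Cells in which this list made up at least 0.1% of UMIs numbered 59 in CD, 107 in HFD and 162 in WD. Those cells had medians of 4443, 2634 and 10935 UMIs, so the limit stood for fewer UMIs in CD and HFD than in WD. All 5 induced genes rose in them and 0 of the 36 others tested were called, where 2.14% of 10537 genes were called higher and 0.256% lower. Psmb9 had 283 CPM in the GTPase-high cells of CD against 107 in the rest, 286 against 130 in HFD and 121 against 53.3 in WD. Each library was higher on the GTPase-high side, and the log2 difference was 1.23 ± 0.12 (SE, 3 libraries, edgeR adjusted p = 1.52e-07). Psmb10 had 266 against 121 CPM in CD, 314 against 135 in HFD and 86.9 against 56.1 in WD, a log2 difference of 0.95 ± 0.13 (edgeR adjusted p = 2.55e-05). The PA28 gene Psme2 had 388 against 193 CPM, 417 against 201 and 95.2 against 61.2 in the same order (log2 difference 0.88 ± 0.12, edgeR adjusted p = 2.55e-05).

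Psmb8 had 720 against 350 CPM in CD, 710 against 389 in HFD and 176 against 122 in WD, a log2 difference of 0.79 ± 0.11 (edgeR adjusted p = 4.13e-05). Psme1 moved least of the 5, by 0.52 ± 0.12 (edgeR adjusted p = 0.0135), with 329 against 189 CPM, 268 against 212 and 200 against 146. Without the WD library its edgeR adjusted p was 0.0813 and 4 genes were called, and without CD or HFD all 5 were. The standard catalytic genes stayed uncalled, with log2 differences of -0.07 ± 0.13 for Psmb5, 0.04 ± 0.12 for Psmb6 and -0.19 ± 0.14 for Psmb7. Over the 36 other genes the median log2 difference was 0.01 and the range ran from -0.29 to 0.42. Of these 36, 1 (Psme4) had an unadjusted edgeR p under 0.05, and DESeq2 called 0.

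Genes that carry proteasome products to MHC class I rose on the same side. Of 11 such genes 6 were called higher, namely Tap1 and Tap2, the peptide transporter, Tapbp and Tapbpl, which load and edit peptides, and the class I chains H2-K1 and B2m. Tap1 had 141 against 38.3 CPM in CD, 165 against 49.2 in HFD and 89.6 against 32.3 in WD (log2 difference 1.65 ± 0.14, edgeR adjusted p = 3.46e-08). Among the regulators Irf1, Irf8 and Nlrc5, the activator of class I genes, were called higher, Irf8 by 0.49 ± 0.12 on the log2 scale (edgeR adjusted p = 0.0250). Of 14 assembly and accessory genes (such as Pomp, the chaperone of new cores) and 11 ubiquitin and shuttle genes 0 were called by edgeR, 0 had an unadjusted p under 0.05 and DESeq2 called 0.

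RNA of endothelial cells moved with this split in CD and HFD. The summed level of 10 endothelial markers was 2971 CPM on the GTPase-high side against 186 on the other in CD, 1102 against 389 in HFD and 39.7 against 30.9 in WD, with 4 of the 10 (Cldn5, Emcn, Esam, Ly6c1) at 0 on the high side in WD. Without cells that carried these markers at 0.1% or more of UMIs, which left 54, 98 and 161 GTPase-high cells, all 5 induced genes were again called. Psmb9 then differed by 1.27 and Psmb8 by 0.83 on the log2 scale.

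A set of 11 type I interferon response genes, such as Ifit1, Isg15 and Rsad2, separated the family in the same way. Cells with at least 0.1% of UMIs in this list numbered 159 in CD, 112 in HFD and 226 in WD. With medians of 4420, 2815 and 14195 UMIs, the limit again stood for fewer UMIs in CD and HFD. All 5 induced genes rose and 0 of 36 others were called, where 3.19% of 10765 genes were called higher and 0.381% lower. Psmb9 had 181 against 107 CPM in CD, 265 against 130 in HFD and 102 against 52.5 in WD (log2 difference 0.90 ± 0.09, edgeR adjusted p = 4.16e-06). Psmb8 had 535 against 347 CPM, 801 against 382 and 196 against 119 (log2 difference 0.79 ± 0.08, edgeR adjusted p = 7.62e-06). Both genes were higher on the interferon-high side in every library.

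The rest of the induced genes differed by less. Psme2 rose by 0.56 ± 0.08 (278 against 192, 321 against 205 and 88.1 against 60.6 CPM), Psmb10 by 0.51 ± 0.10 (194 against 120, 193 against 141 and 74.9 against 56.0 CPM) and Psme1 by 0.47 ± 0.08 (276 against 186, 298 against 210 and 190 against 145 CPM). Their edgeR adjusted p-values were 0.000437, 0.00402 and 0.00249. These 3 calls were lost without the CD library, where 2 genes, Psmb8 and Psmb9, were called. Without HFD the edgeR adjusted p of Psme1 was 0.142. Among the 36 others the log2 differences ran from -0.24 to 0.22 with a median of 0.03. Psma4 and Psmd8 were the 2 of them with an unadjusted edgeR p under 0.05, and DESeq2 called 0. Of the 11 MHC class I genes Tap1, Tapbp, Tap2, H2-K1, B2m and H2-D1 rose, and among the regulators Nlrc5 did. DESeq2 called 4 of the 11 class I genes higher.

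Markers of other cells moved here too. Endothelial markers summed to 852 against 216 CPM in CD and 995 against 391 in HFD, and 6 neutrophil markers to 2970 against 1089 CPM in WD. Without endothelial-marked cells all 5 induced genes were called again, as they were without cells holding 0.5% or more of their UMIs in the neutrophil markers.

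**Figure D2:**
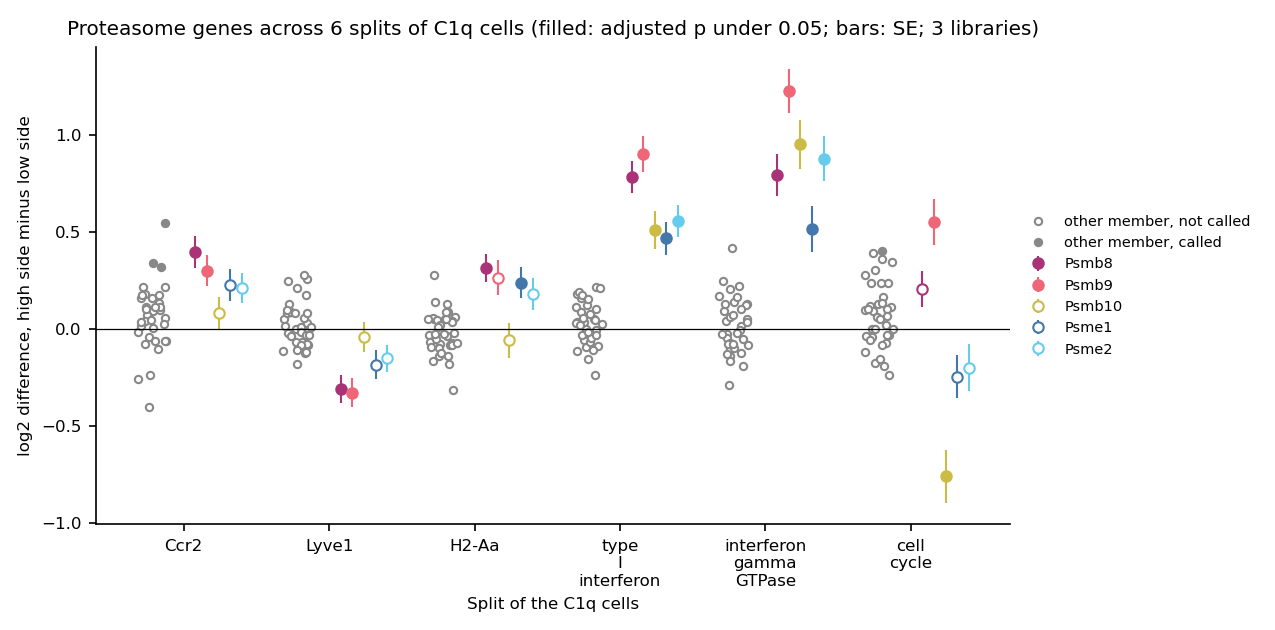
Log2 difference (high side minus low side) of each tested proteasome gene in 6 splits of the C1q cells, fitted over 3 libraries, with SE bars for the 5 induced genes and filled points for an edgeR adjusted p under 0.05. The 5 induced genes are filled and positive in the type I interferon and GTPase splits, and Psmb10 is negative (-0.76) in the cell cycle split.

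The surface and lineage genes by which heart macrophages are commonly divided gave smaller differences. Ccr2, the chemokine receptor of macrophages that derive from monocytes, was detected in 27.9%, 19.9% and 21.9% of C1q cells. In those cells 5 of 42 genes rose and 0 fell, where 7.35% of 10944 genes were called higher and 7.84% lower. Psma4, an alpha ring gene, differed most, with 233 against 172 CPM in CD, 228 against 153 in HFD and 110 against 75.5 in WD (log2 difference 0.55 ± 0.08, edgeR adjusted p = 0.00187). Psmb8 had 413 against 330 CPM, 450 against 389 and 155 against 107 (0.40 ± 0.08, edgeR adjusted p = 0.00931). Psmb1 (0.34 ± 0.08), Psma7 (0.32 ± 0.08) and Psmb9 (0.30 ± 0.08) rose as well. These 5 mix standard and induced genes, and Psmb10 (0.08 ± 0.08) and the standard catalytic genes (0.07 for Psmb5, 0.10 for Psmb6, 0.10 for Psmb7) were not called.

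The calls along Ccr2 other than Psma4 changed with the libraries used. Without CD only Psma4 was called, without HFD 3 genes were (Psma4, Psmb8, Psmb9) and without WD 2 (Psma4, Psmb8). Cells with Ccr2 were deeper (medians of 5103 against 4111.5, 3717 against 2731 and 20138 against 11199 UMIs), and when Ccr2 detection was read after thinning each cell to 1000 UMIs, 1 gene, Psma4, was called. The 5 monocyte markers summed to 431 against 41.8 CPM in CD, 39.0 against 3.7 in HFD and 310 against 35.6 in WD, with Ly6c2 at 0 on the low side in HFD, and their part in the result was not tested. With edgeR 2 of the 42 genes had a lower level at an unadjusted p under 0.05, and DESeq2 called 0 lower. Of the pathway genes Tap1 rose (0.47 ± 0.08). Nfe2l1, the factor known to raise proteasome genes when proteolysis is short, fell by 0.31 on the log2 scale. DESeq2 called 0 of the regulators lower.

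Lyve1, a marker of long-lived resident macrophages, was detected in 49.3%, 37.5% and 73.5% of C1q cells. In those cells 2 of 42 genes fell and 0 rose, where 6.78% of 10850 genes were called lower and 7.58% higher. The family was thus called no more often than all genes. Psmb9 had 102 CPM with Lyve1 against 124 without in CD, 132 against 142 in HFD and 52.6 against 69.8 in WD, and fell by 0.33 ± 0.08 on the log2 scale (edgeR adjusted p = 0.0160). Psmb8 had 339 against 388 CPM, 376 against 426 and 117 against 153, and fell by 0.31 ± 0.07 (edgeR adjusted p = 0.0156). Both were lower with Lyve1 in every library. Psmb10 was not called (-0.04 ± 0.08), with 131 against 118 CPM in CD, 139 against 147 in HFD and 56.9 against 58.9 in WD. Without HFD 0 genes were called (edgeR adjusted p = 0.139 for Psmb8 and 0.0613 for Psmb9), without WD 1 (Psmb8), and without CD Psmd6 was called higher. In edgeR's fit 3 genes were higher at an unadjusted p under 0.05, and DESeq2 called 0 higher and 1 lower.

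Some regulators of interferon signalling were also lower with Lyve1. Irf8, Ifngr2 and Ifngr1 fell, Irf8 with 133 against 194 CPM in CD, 143 against 211 in HFD and 90.5 against 126 in WD. Irf1, Nlrc5, Jak1 and Jak2 were not called, and of these Jak1 was higher at an unadjusted edgeR p under 0.05. Tap1 fell by 0.63 ± 0.10 on the log2 scale (edgeR adjusted p = 0.00244). Nfe2l1 rose by 0.41 ± 0.10, but DESeq2 called 0 of the regulators higher. Sem1, a small cap subunit outside the Psm names, was called higher too, by no more than 0.23.

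H2-Aa, a chain of MHC class II, was detected in 81.1%, 89.6% and 90.9% of C1q cells. With it 2 of 41 genes rose and 0 fell, where 7.77% of 10517 genes were called higher and 5.40% lower. Calls were again no more frequent in the family than over all genes. Psmb8 had 368 against 319 CPM in CD, 409 against 363 in HFD and 126 against 99.2 in WD (log2 difference 0.31 ± 0.07, edgeR adjusted p = 0.00261). Psme1 had 197 against 169 CPM, 218 against 187 and 149 against 138 (0.24 ± 0.08, edgeR adjusted p = 0.0398). The call of Psme1 was lost without CD (edgeR adjusted p = 0.181) and without HFD (0.127), whereas that of Psmb8 was kept in each, and without HFD Psmd14 was called higher. Psmb9 missed the threshold at 0.27 ± 0.09 (edgeR adjusted p = 0.0542). Psmd9 was lower at an unadjusted p under 0.05, and DESeq2 called 0 lower. Tap1, Jak2, Irf8 and Ifngr1 rose on the same side, but DESeq2 called 0 of the regulators higher.

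The immunosubunit share also varied with the level of H2-Aa. When the C1q cells with H2-Aa were cut into 3 groups of equal size by that level, the share ran 52.2%, 50.8%, 53.6% and 60.8% from none to high in CD, 57.1%, 56.0%, 59.5% and 66.4% in HFD, and 50.6%, 51.1%, 55.2% and 58.6% in WD. In each library the high group was above the rest and its interval did not overlap theirs. Psmb8 followed this in CD (319, 329, 361 and 424 CPM) and WD (99.2, 102, 126 and 152 CPM). In HFD Psmb8 reached 438 CPM in the middle group and 418 in the high one. Psmb5 was lowest there in the high group (102 CPM against 147 to 157). The pairs differed in WD, where Psmb10 made up 53.0%, 49.1%, 49.1% and 48.8% of the beta2 pair from none to high. Over the same groups Psmb8 ran from 59.1% to 75.1% of the beta5 pair and Psmb9 from 37.5% to 43.5% of the beta1 pair. In CD and HFD the share of Psmb10 was highest in the high group, at 57.6% and 64.3%.

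Psmb8 was then read in the combinations of the 3 genes. Cells with Ccr2 and H2-Aa but without Lyve1 (439 in CD, 345 in HFD, 290 in WD) had it at 438, 443 and 197 CPM, the highest in CD and WD. Cells with Lyve1 alone (299, 132 and 293) had it at 313, 355 and 97.5 CPM, the lowest of the 6 combinations with at least 20 cells in every library. The highest in HFD was the group with all 3 genes, at 480 CPM over 53 cells. These ranks are by value and were not tested. Cells with Lyve1 alone held 422, 163 and 318 UMIs of Psmb8, and their counting intervals overlap those of the next lowest group. The highest value in HFD rests on 152 UMIs, and its interval overlaps that of the group at 443 CPM.

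**Figure D3:**
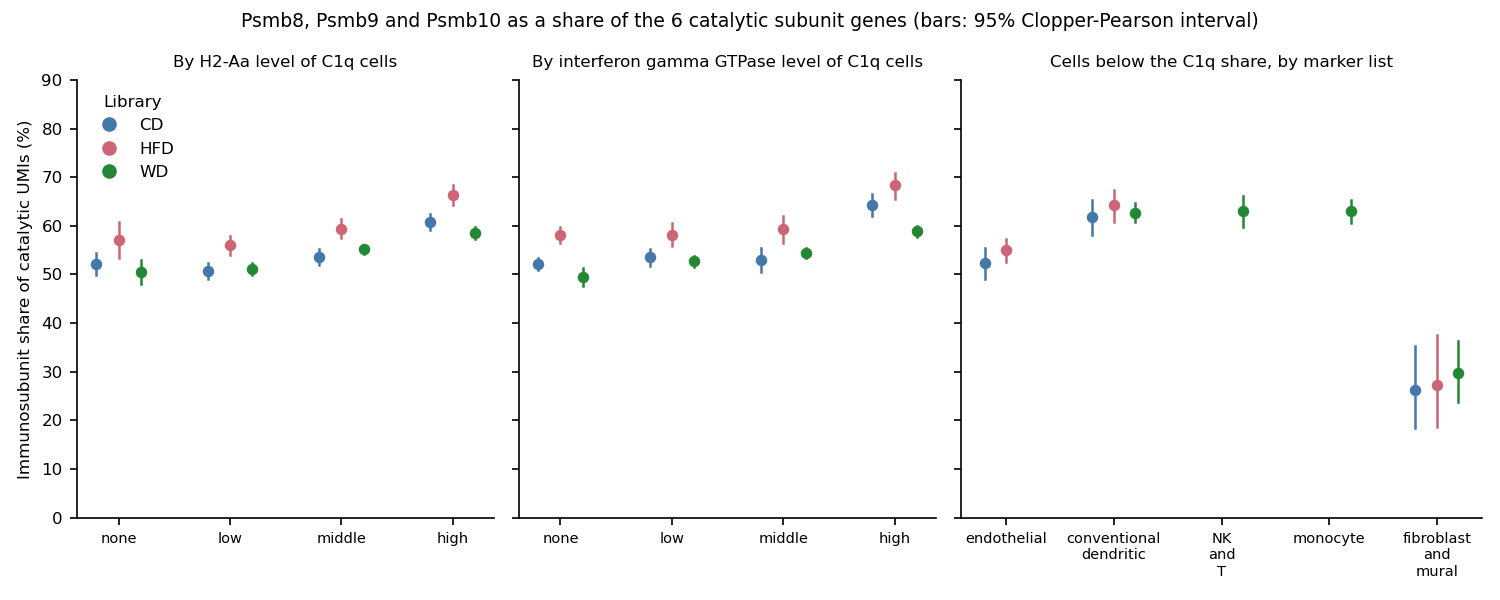
Immunosubunit share (Psmb8, Psmb9 and Psmb10 as a percentage of the UMIs of the 6 catalytic genes) by H2-Aa level and by GTPase level of C1q cells, and in cells below the C1q share grouped by marker list, per library with 95% Clopper-Pearson intervals. The high groups of both gradients stand above the others in every library (60.8%, 66.4% and 58.6% for H2-Aa), and fibroblast and mural cells stand lowest (26.3%, 27.4% and 29.8%).

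The share was set out along the other splits too. In GTPase-high cells the immunosubunit share was 70.6% against 53.7% in CD, 75.0% against 58.8% in HFD and 67.9% against 54.0% in WD. In type I interferon-high cells it was 66.1% against 53.3%, 72.0% against 58.9% and 65.4% against 53.7%. In both, the intervals of the sides stood apart in every library. With Ccr2 it was 57.4% against 52.5%, 62.2% against 59.2% (intervals overlapping) and 56.5% against 53.5%. With Lyve1 it was 54.0% against 54.9% in CD, where the intervals overlap, 56.6% against 62.5% in HFD and 53.5% against 59.2% in WD.

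In cycling cells Psmb9 and Psmb10 moved in opposite directions. Cells with at least 0.1% of UMIs in 12 mitotic genes such as Mki67 and Top2a numbered 99, 54 and 113. Psmb9 rose in them and Psmb10 fell, with Psmd13, a cap subunit, the other gene to rise. Thus 2 of 42 were higher and 1 lower, where 10.2% of 10708 genes were called higher and 12.0% lower. Proteasome genes were called less often than all genes in both directions. Psmb9 had 182 against 107 CPM in CD, 199 against 135 in HFD and 91.5 against 53.7 in WD (log2 difference 0.55 ± 0.12, edgeR adjusted p = 0.000371). Psmb10 had 78.6 against 128 CPM, 109 against 145 and 38.7 against 58.3, and fell by 0.76 ± 0.14 (edgeR adjusted p = 2.35e-05). The directions were opposite in every library, and both genes were called whichever library was left out. The immunosubunit share was 55.5% against 54.3%, 59.8% against 60.0% and 53.3% against 54.8%, with overlapping intervals in each library.

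Psmd13 had 106 against 70.0 CPM, 97.8 against 61.9 and 48.6 against 33.9 (0.41 ± 0.14, edgeR adjusted p = 0.0250), and lost its call without CD or without HFD, where 1 gene stayed higher. Without WD 4 genes were called higher (Psmb1, Psmb8, Psmb9, Psmd13). Psmb8 itself was at 0.21 ± 0.10 and Psme1 at -0.25 ± 0.11, uncalled. Among the regulators Irf8, Ifngr2, Ifngr1, Jak1 and Nfe2l2 fell. Tap1 and H2-K1 rose, and Calr, Pdia3 and Canx, chaperones that fold class I, fell. DESeq2 called 4 regulators lower, and 1 class I gene higher and 2 lower. Cycling cells were deeper (medians of 6896 against 4283.5, 4481 against 2920.5 and 26491 against 12082 UMIs) and lower in the macrophage markers (27687 against 42586, 30446 against 48023 and 15356 against 21208 CPM), and the part of either was not tested.

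No proteasome gene was called between the C1q cells and all cells below that share. With edgeR 0 of 42 proteasome genes were called in either direction, against 7.10% of 12168 genes, 1 (Psme2, lower in C1q cells) had an unadjusted p under 0.05, and DESeq2 called 0. The calls over all genes depended on the libraries. Without CD, without HFD or at 0.5% C1q 0 genes were called, and without WD 1744 were higher and 2047 lower. The lack of calls is thus no sign of equal levels. The median log2 difference of the 42 was -0.11, against 0.03 over all genes. The cells below were different mixtures in each library, with endothelial markers at 12733, 15652 and 55.4 CPM and NK and T markers at 32.9, 5.3 and 1293 CPM. Grouped by the marker list they carried, they spread widely in the immunosubunit share. Cells with fibroblast or mural markers (44, 36 and 41) had 26.3% (18.5 to 35.4), 27.4% (18.7 to 37.5) and 29.8% (23.7 to 36.4). Conventional dendritic cell markers marked 67, 108 and 186 cells with 61.7%, 64.2% and 62.7%, above the C1q cells of the same library (in HFD with overlapping intervals), and Psmb8 there reached 705, 622 and 250 CPM. The pairs differed in these cells. Psmb8 and Psmb9 made up more of their pairs than in C1q cells in every library, and Psmb10 less. Psmb10 was 37.5% of the beta2 pair in CD and 43.0% in WD, against 51.7% and 49.3% in C1q cells. In HFD the intervals of the Psmb10 share overlapped. Endothelial-marked cells of CD (208) and HFD (517) had 52.3% and 55.0%, and held Psmb10 at 213 CPM in each.

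Between diets each ratio compares 2 libraries, with no replicate check. From CD to HFD all 5 induced genes were higher and most others lower. The ratio of HFD to CD was 1.23 for Psmb9 (95% interval 1.13 to 1.34), 1.15 for Psmb10 (1.06 to 1.25), 1.12 for Psmb8 (1.07 to 1.18), 1.12 for Psme1 (1.04 to 1.19) and 1.07 for Psme2 (0.998 to 1.14). Psmb5, Psmb6 and Psmb7 had ratios of 0.944, 0.913 and 0.879. The 36 other genes with at least 100 UMIs had a median log2 ratio of -0.15 against -0.04 over all 8541 genes, with Psmd14, the cap deubiquitinase, the lowest at a ratio of 0.706 (0.617 to 0.808) and the chaperone Psmd10 the highest at 1.16. Of 41 genes 0 passed 1.5-fold in either direction, where 8.22% of genes did. The 11 MHC class I genes had a median log2 ratio of 0.24 with none past 1.5-fold.

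In WD nearly all proteasome genes had lower CPM than in CD. Of 42 genes 34 were at least 1.5-fold lower, where 28.3% of 11800 genes were, and 1, Psme4, was higher, where 44.5% were. Against HFD 32 of 41 were lower, where 26.7% were, and 2 were higher, Psme4 and Psmd14, where 45.0% were. Psme2 was 3.17-fold lower than in CD, Psmb6 2.92-fold, Psmb8 2.91-fold and Psmb5 2.60-fold, while Psme1 was 1.30-fold lower. The median log2 ratio to CD was -1.06 over the 37 genes outside the induced set with at least 100 UMIs and 0.34 over all genes.

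The WD ratios moved with the intronic length of the genes. With all genes in 5 equal groups, from the shortest to the longest introns, the median log2 ratio of WD to CD over all genes ran -0.84, -0.45, 0.08, 0.86 and 2.07, whereas that of HFD to CD stayed between -0.07 and 0.00. The proteasome genes of those groups had medians of -1.12, -1.12, -0.99, -1.04 and 0.11. Psme4, the highest against CD at 8.71-fold (7.50 to 10.2), has the longest introns of the family with 100254 bases, followed by Psmd14 with 85863. Less the median of all genes in the same length group, the median of the other proteasome genes was -0.77, so they stood below genes of like intronic length, and that of the 5 induced genes was -0.29. On that scale Psme1 turned from -0.38 to 0.46 against CD, and Psmb9 (-0.17), Psmb10 (-0.29) and Psmb5 (-0.54) no longer passed 1.5-fold, whereas Psmb8 (-0.70) and Psme2 (-0.83) did. Psmd14 turned from 0.61 to -1.41 against HFD, and Psmd8 and Psme3, lower against HFD, came to 0.051 and 0.028.

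**Figure D4:**
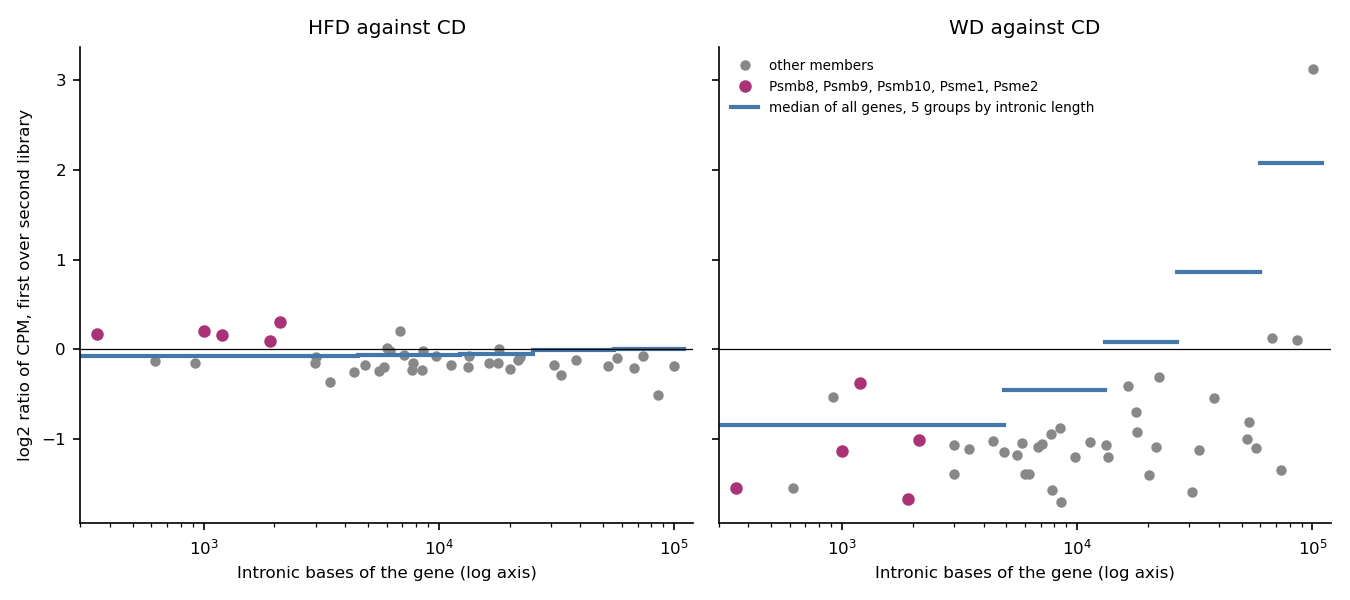
Log2 ratio of CPM in C1q cells against the intronic bases of each gene (log axis) for HFD over CD and WD over CD, with the 5 induced genes in purple, the others in grey and the median of all genes in each of 5 groups of intronic length as a bar. In WD the bars climb from -0.84 to 2.07 and most proteasome genes lie under them, while in HFD the bars stay near 0 and the 5 induced genes lie above.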

How the data were processed

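Single-cell RNA-seq libraries of sorted heart macrophages were analysed, 1 each for the CD, HFD and WD diets. The deposited values are whole UMI counts of each gene in each barcode, from the authors' counting software (version 3.0.1 for CD and HFD, 7.2.0 for WD, per the file headers), with no normalization; GRCm38 and Seurat are named in the submitters' processing notes. Genes were joined by Ensembl ID. Cells were filtered as given above, and UMIs were summed per library and group. Splits were tested in edgeR 4.0.16 (filterByExpr, TMM, glmQLFit and glmQLFTest, library as block, two-sided, Benjamini-Hochberg, call at 0.05). The SE is the log2 difference over the root of the F statistic. DESeq2 1.42.0 was an alternative. Ratios between diets carry exact conditional 95% intervals. Gene lengths came from GENCODE vM21, which held all 43 genes.

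The members, lists and splits were chosen with earlier results of these data known. Genes named are the induced and standard catalytic genes, those called or past 1.5-fold, and the highest and lowest of each class. Doublet scoring was an alternative only. Of 48 pathway symbols 46 were found. 1 gene of the regulator list is not reported here. On simulated counts from these libraries, edgeR recovered 96.3% of genes changed 2-fold in the Ccr2 split (10933 genes) with 4 false calls, and 73.1% in the cell cycle split (10608 genes) with 5. DESeq2 recovered 77.0% and 34.7%. The spread between libraries was assumed and only well-counted genes were changed. Differences under 2-fold and the other splits were not simulated. Depth ranged from 16630481 to 79269380 UMIs per library, and only counting error is covered by intervals.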

Additional observations from a re-analysis of the deposited data

Results flagged for a closer look

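In 4 cases the counting intervals of a gene's ratio lay on opposite sides of 1 in different libraries of the same split, and none of these differences was tested. Psmb2, a non-catalytic beta gene, was higher with Ccr2 in WD (ratio 1.18) and lower in CD (0.911) and HFD (0.813). Psmd1, the scaffold of the cap, was higher with Ccr2 in WD (1.14) and lower in CD (0.765). Psmb6 was higher with Lyve1 in HFD (1.12) and lower in CD (0.902). Psmb1 was higher in GTPase-high cells of CD (1.23) and lower in those of WD (0.836), and HFD lay between (0.906). With edgeR none of Psmb2, Psmd1 and Psmb6 was called in those splits, nor Psmb1 in the GTPase split.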

How the results depend on the processing

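No paired analysis was possible because the labels give 1 library a diet and no replicate numbers; the library is already a block in each split. Alternatives were DESeq2, no filter on low counts, each library left out, 5% mitochondrial and 0.5% C1q limits, doublets removed, thinned detection, and, chosen after seeing the data, removal of endothelial- or neutrophil-marked cells and subtraction of the median of genes of like intronic length. No call of a split reversed. Less that median Psmd14 turned to -1.41, Psmd8 to 0.051 and Psme3 to 0.028 in WD against HFD, and Psme1, which had not passed 1.5-fold, to 0.46 in WD against CD and 0.26 against HFD. Leaving out a library gave 1 to 3 genes higher for Ccr2 (5 with all), 0 to 1 higher and 0 to 2 lower for Lyve1, 1 to 2 higher for H2-Aa, 2 to 5 for the type I interferon split, 4 to 5 for the GTPase split and 1 to 4 for the cell cycle. Thinned detection gave 1 for Ccr2 and 3 for H2-Aa. DESeq2 gave 1 lower for Lyve1, and 1 higher each for H2-Aa and the cell cycle. With no filter on low counts, Lyve1 gave 1 higher, H2-Aa 4 and the cell cycle 1. At 5% mitochondrial, H2-Aa gave 1 and the cell cycle 1. At 0.5% C1q, Lyve1 gave 1 higher and H2-Aa 1. With a minimum of 20 UMIs, HFD against CD had 1 gene at least 1.5-fold lower, Psma8. WD against HFD had 1 gene higher (2 before) with TMM scaling, thinned sums, doublets removed, 0.5% C1q, 5% mitochondrial and less that median. The causes of these shifts were not tested. Depth limits Psmb11, which held too few UMIs for any split, and Psma8, which was tested in 4 of the 7.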

Other observations

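In WD, where other immune cells were marked below the C1q share, the immunosubunit share was 63.1% (59.8 to 66.2) in 172 cells with NK and T markers, 63.0% (60.6 to 65.4) in 115 cells with monocyte markers, 54.2% (48.5 to 59.8) in 127 with neutrophil markers and 54.4% (47.3 to 61.4) in 35 with B cell markers. Psmb8 stood at 222 CPM in the first, 301 in the monocyte-marked and 101 in the neutrophil-marked cells. The monocyte-marked cells also held Psme2 at 150 CPM, against 62.4 CPM in the C1q cells of that library.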
